A study of Mus musculus with 8 samples.

Results

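The genes described here carry the canonical Wnt signal inside the cell or are switched on by it: Lef1, Tcf7, Tcf7l1 and Tcf7l2 (the TCF/LEF transcription factors), Ctnnb1 (beta-catenin), Apc and Gsk3b (parts of the complex that destroys beta-catenin), and the targets Axin2, Nkd1 and Sp5. They were found as probe sets whose only gene symbol in the platform annotation was one of these 10 names. The annotation gave 28 such probe sets for 9 of the 10 genes, among 18194 named genes in all, and Tcf7 was not analysed here. Of the 28 probe sets, 27 passed the filter on low signal, and so did the brightest probe set of each of the 9 genes.

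Expression was measured on 8 Affymetrix arrays of total RNA. The cells were embryonic stem cells of the mouse (strain 129X1 x 129S1), grown for 4 days under standard conditions. All 4 groups held knockdown and mock cells at 1:4, where the knockdown cells carried a hairpin against Top1 (shTop1) or p53 (shp53). In the 2 coculture groups, shTop1 coculture and shp53 coculture, both kinds of cell shared a dish. In the 2 control groups, here called shTop1 mix and shp53 mix, they were grown homotypically and their RNA was mixed afterwards. The design thus asked what changed when the cells lived together, apart from what each knockdown does by itself. Each group held 2 arrays that the labels call biological replicates, with no word on separate thaws or on whether the mixes shared mock RNA, so p-values measure the spread between these arrays. Because the RNA is a mixture, a level is an average in which mock cells made up most of the input, and a change in 1 kind of cell cannot be told apart from a change in its share.

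Canonical Wnt signalling turns on the fate of beta-catenin. Without a ligand, a complex built on Axin and Apc holds beta-catenin so that Gsk3 kinases can phosphorylate it, which marks it for destruction. When a Wnt ligand binds its Frizzled and Lrp receptors the complex is disabled, beta-catenin enters the nucleus and joins the TCF/LEF factors, and targets such as Axin2 are transcribed. In mouse embryonic stem cells Tcf7l1 acts mainly as a repressor of pluripotency genes, and Wnt ligands or Gsk3 inhibitors favour self-renewal. Lef1 becomes more abundant as the cells move towards the primed epiblast.

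The TCF/LEF factors read DNA through a short core, and the promoters of the pair of genes with the largest coculture differences are shown for that reason. The 250 bases before the start site of each are from RefSeq (GRCm38.p6, plus strand, 5′ to 3′), chr2:70474673-70474922 for Sp5 and chr3:131110047-131110296 for Lef1. Capitals mark matches, on either strand, to CTTTGAA or CTTTGAT or CTTTGTA or CTTTGTT, the 4 spellings of the core searched, none of which overlapped another match here.
Sp5: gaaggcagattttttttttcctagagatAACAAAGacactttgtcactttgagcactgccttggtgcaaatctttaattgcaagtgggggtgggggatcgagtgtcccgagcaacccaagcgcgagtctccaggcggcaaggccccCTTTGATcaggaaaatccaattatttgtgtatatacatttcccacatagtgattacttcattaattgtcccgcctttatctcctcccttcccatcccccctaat
Lef1: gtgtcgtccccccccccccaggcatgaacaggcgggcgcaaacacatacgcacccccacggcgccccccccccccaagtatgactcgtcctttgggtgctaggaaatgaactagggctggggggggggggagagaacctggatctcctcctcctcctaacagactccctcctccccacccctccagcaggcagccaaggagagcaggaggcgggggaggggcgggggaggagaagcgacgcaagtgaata
The Sp5 window held 2 matches. The nearer was CTTTGAT, 104 to 98 bases before the start, and the farther was CTTTGTT read on the opposite strand, 222 to 216 bases before it. The Lef1 window shown held none, and of the 4 start sites listed for Lef1 1 had a match, CTTTGTA on the opposite strand at 147 to 141 bases before that start. Windows of 300 bases (250 before to 50 after a start) were listed for 8 of the 9 genes, 13 windows in all, and 3 of the 13 held a match. Over all 32851 such windows of the mouse genome 16.9% held at least 1 match and 1.94% held 2 or more. A match is a description of the letters, not evidence of binding.

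The cell type on the labels was checked first. All 10 embryonic stem cell markers were detected, with a median at the 98.3th percentile of signal. The level of Top1 was 5110 to 5316 on the 4 shTop1 arrays and 5456 to 5886 on the 4 shp53 arrays. They did not overlap, as in 2.09% of genes in either direction. Top1 was not called between the knockdowns, where limma called 0% of genes. The level of the p53 gene was not analysed here. Mean signal was 812 to 896 per array. The first principal component (19.9% of variance) ran from -21.1 to -5.14 on the mixes and from -2.94 to 26.1 on the cocultures. Its highest array was shTop1 coculture replicate 2 and its lowest was shp53 mix replicate 1. On the second component (16.9%) shTop1 coculture replicate 1 was at 32.6, against -15.5 to 3.63 on the others. The summed marker signals of other cell types were as follows, and the part of these cell types in the results was not tested. The summed signal of the 5 primed epiblast markers, all detected, was 13680 to 14940 on the mixes and 12130 to 12590 on the cocultures. Dnmt3b, at a mean signal of 10560, made up most of this sum. The sum of the 8 primitive endoderm markers, all detected, was 20580 to 21820 on the mixes, 21380 to 23230 on the shTop1 cocultures and 23280 to 25240 on the shp53 cocultures. Of 12 fibroblast markers, 7 passed the filter, with sums of 474 to 564 on the mixes and 587 to 663 on the cocultures. Of these 7, 1 had a mean log2 difference (coculture minus mix) below 0, Col6a2 at -0.25. Col3a1, Col6a1, Postn, Dcn and Lum lay under the filter, at -0.22, 0.041, -0.18, -0.042 and -0.22, so the 12 markers went both ways. Of 6 trophectoderm markers 4 passed, with sums of 1271 to 1339 in the shTop1 mix, 1138 to 1173 in the shTop1 coculture, 786 to 1186 in the shp53 mix and 1026 to 1323 in the shp53 coculture, and Elf5 and Gata3 lay under the filter. Of 5 named neural markers 3 passed, with sums of 279 to 397, 344 to 377, 366 to 436 and 278 to 325 in the same order, and Neurog2 and Pax3 lay under it. Of 6 named primitive streak and mesoderm markers 4 passed, with sums of 347 to 354, 359 to 447, 350 to 409 and 347 to 370 in that order, and Gsc and Evx1 lay under it. With shTop1 the trophectoderm sums were lower and the streak sums higher in coculture without overlap, and with shp53 the neural sums were lower. Single genes often separate this way: 16.9% lower and 24.5% higher with shTop1, and 17.1% lower with shp53. Tfap2c, at a mean signal of 989, made up most of the trophectoderm sum. Over both knockdowns Krt7 and Hand1 had log2 differences of 0.20 and 0.23, and Cdx2 of -0.033. Of the neural markers Sox1 was at -0.99, Pax6 at 0.020 and Nes at 0.10. No marker was listed at 0 on any array.

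Averaged over both knockdowns, Lef1 was the one member whose cocultures all lay below all mixes, and Sp5 had a difference of similar size that came from the shTop1 samples alone. The other 7 members had log2 differences from -0.12 to 0.017. No member passed the test over all genes. Of 9 members, 7 had a log2 difference (coculture minus mix) below 0, against 44.7% of all 14267 genes tested, and the median was -0.032 against 0.022 for all genes. These counts depend on the processing: 5 of 9 members were above 0, with a median of 0.0011, when each gene's probe sets were averaged, and 4 of 9 were above 0 with median centring. Limma called 0 of 9 members and 0% of all genes at an adjusted p of 0.05. At an unadjusted p of 0.05 it had 1 member, Lef1, against 11.7% of all genes in either direction and 4.63% in the lower one. Trended and robust variances also called no member.

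Lef1 encodes the TCF/LEF factor that is itself raised by Wnt signalling and in the primed epiblast. Its signal was 832 and 900 in the shTop1 mix, 716 and 561 in the shTop1 coculture, 954 and 771 in the shp53 mix, and 596 and 677 in the shp53 coculture. The lowest mix lay above the highest coculture, and the groups did not overlap within either knockdown. Only 3.35% of genes had all 4 cocultures below all 4 mixes, and 9.10% were separated in either direction. The log2 difference was -0.43 ± 0.12 (SE), a ratio of 0.741, with a 95% confidence interval of -0.72 to -0.14 (limma adjusted p = 0.349 over all genes). With shTop1 it was -0.44 ± 0.17 and with shp53 -0.42 ± 0.17 (SE; limma adjusted p = 0.605 and 0.718). The difference between these 2 effects was -0.017, with a confidence interval of -0.60 to 0.56. The 5 primed epiblast markers described above, which do not include Lef1, all had mean differences below 0, against 44.7% of all genes. Their median was -0.29, and their part in the Lef1 difference was not tested. Of the 10 embryonic stem cell markers, with a median of 0.061, 3 were below 0. These were Sox2 at -0.29, Zfp42 at -0.28 and Klf4 at -0.15.

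The other Lef1 probe set gave no such pattern. Its signal was 85.1 and 131 in the shTop1 mix, 97.4 and 98.7 in the shTop1 coculture, 97.9 and 86.1 in the shp53 mix, and 102 and 95.4 in the shp53 coculture. The groups overlapped in both knockdowns, and its mean difference was -0.0020 ± 0.13 (SE; limma adjusted p = 0.996 over all probe sets). Over the 8 arrays the 2 probe sets had a Pearson correlation of 0.154. It is the dimmer of the pair, at the 56.7th percentile of signal against the 81.8th, and the Lef1 difference therefore rests on 1 probe set. With both probe sets averaged it was -0.22.

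Sp5 encodes a zinc finger factor of the Sp family and is a direct target of beta-catenin. Its signal was 88.3 and 67.7 in the shTop1 mix, 18.3 and 40.5 in the shTop1 coculture, 32.8 and 31.1 in the shp53 mix, and 34.7 and 46.3 in the shp53 coculture. The shTop1 mix stood above the other 3 groups, whose 6 arrays ran from 18.3 to 46.3. With shTop1 the cocultures lay below the mixes, as in 16.9% of genes. The log2 difference was -1.09 ± 0.26 (SE), with a 95% confidence interval of -1.71 to -0.46. That is a ratio of 0.471 in signal plus 16, where the mean signals were 29.4 in the coculture and 78.0 in the mix. With shp53 the cocultures lay above the mixes, as in 20.9% of genes, by 0.23 ± 0.26 (SE). Neither passed (limma adjusted p = 0.527 and 0.877). The 2 effects differed by -1.31 ± 0.36 (SE), with an interval of -2.20 to -0.43, which did not pass over all genes either (limma adjusted p = 1). At an unadjusted p of 0.05, 4.30% of genes had such a difference, and Sp5 was the 1 member among them.

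Sp5 has a single probe set, at the 42.7th percentile of signal, and 1 of its arrays, shTop1 coculture replicate 1 at 18.3, was below the filter of 22.1. That array stood apart on the second principal component, and replicate 2 of its group was the highest of the cocultures on the first, as given above. Without replicate 1 the shTop1 difference was -0.73, and without replicate 2 of the same group it was -1.44. With a pseudocount of 64 it was -0.61 and with a pseudocount of 1 it was -1.47, so its size depends on the floor. Its direction was the same in all 18 other settings in which Sp5 was tested.

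**Figure D1:**
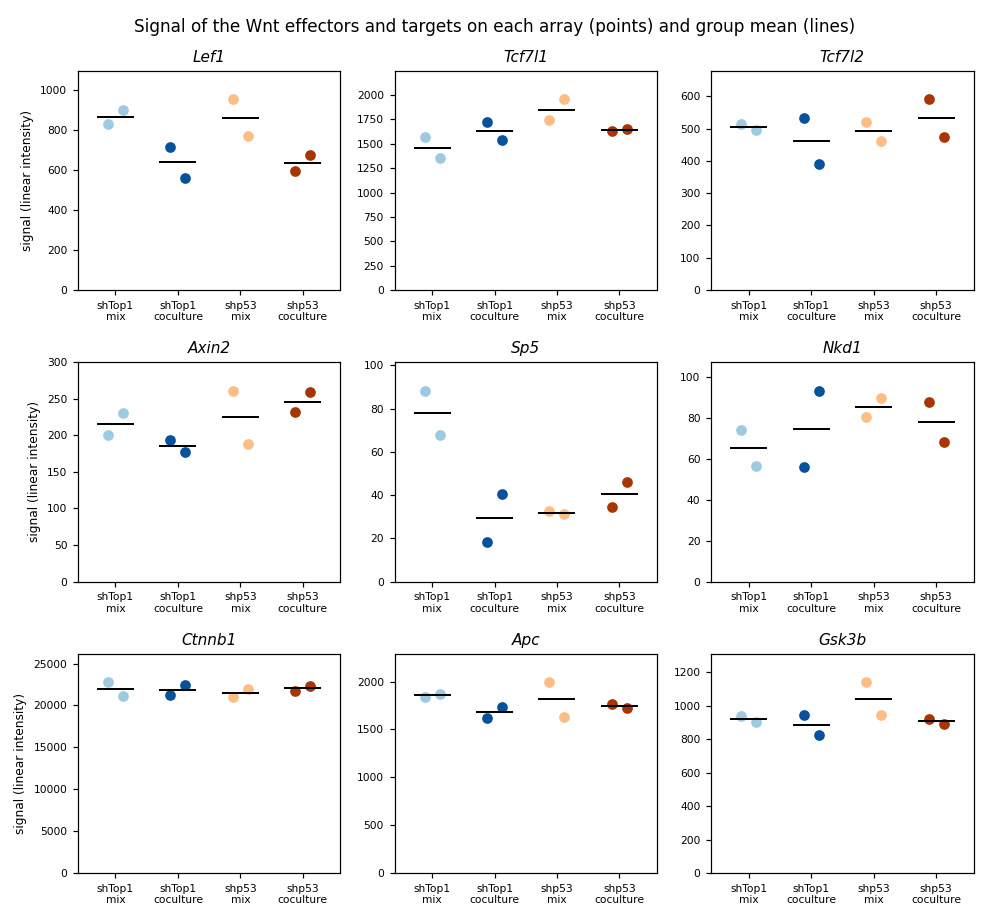
Linear signal (vertical axes, from 0, quantile-normalized intensity) of the brightest probe set of each of the 9 genes on the 8 arrays. Points are single arrays and lines are means of the 2 arrays of each group. Lef1 is lower in both cocultures, from 561 to 716 against 771 to 954 in the mixes, and Sp5 is high only in the shTop1 mix, at 67.7 and 88.3.

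Axin2 is a scaffold of the destruction complex and the most widely used readout of canonical Wnt signalling. Its signal was 201 and 230 in the shTop1 mix, 194 and 177 in the shTop1 coculture, 261 and 189 in the shp53 mix, and 232 and 259 in the shp53 coculture. The shTop1 cocultures lay below their mixes by a narrow margin and the shp53 groups overlapped. The log2 difference was -0.20 ± 0.17 with shTop1 and 0.13 ± 0.17 with shp53 (SE), and their mean was -0.032, with a 95% confidence interval of -0.33 to 0.26 (limma adjusted p = 0.934). The Lef1 difference of -0.43 lies outside that interval, but the Lef1 interval of -0.72 to -0.14 overlaps it. With averaged probe sets Lef1 was at -0.22 and Axin2 at 0.11, and a difference between the 2 genes was not tested. The dimmer probe set of Axin2, at the 33.3th percentile, gave a mean difference of 0.25 ± 0.24 (SE).

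Nkd1 is a feedback inhibitor that binds Dishevelled. Its signal was 74.0 and 56.4 in the shTop1 mix, 55.9 and 93.2 in the shTop1 coculture, 80.5 and 89.8 in the shp53 mix, and 87.7 and 68.2 in the shp53 coculture. The replicates of the shTop1 coculture spanned the whole range of the 8 arrays. The mean difference was 0.010 ± 0.17 (SE; limma adjusted p = 0.986). The other 3 probe sets of Nkd1 had mean differences from -0.12 to 0.29, each within its own spread. With shTop1 the 3 targets thus had values of -1.09 (Sp5), -0.20 (Axin2) and 0.13 (Nkd1), none of which passed the test, and Axin2 was at 0.050 with the mean of its probe sets.

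Tcf7l1, the repressor among the TCF/LEF factors, had a signal of 1568 and 1351 in the shTop1 mix, 1722 and 1536 in the shTop1 coculture, 1747 and 1956 in the shp53 mix, and 1632 and 1650 in the shp53 coculture. The shp53 mixes were the highest of the 4 groups and the shTop1 mixes held the lowest array. The log2 difference was 0.16 ± 0.13 with shTop1 and -0.17 ± 0.13 with shp53 (SE). Their difference was 0.33 ± 0.18 (SE; limma adjusted p = 1), and their mean was -0.0060, with a confidence interval of -0.22 to 0.21. The other Tcf7l1 probe set gave 0.18 ± 0.17 (SE) for the mean, with 1463 and 976 in the shp53 mix and 1176 and 1637 in the shp53 coculture. The 2 probe sets had a Pearson correlation of 0.103 over the 8 arrays.

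Tcf7l2, which can activate or repress Wnt targets, had a signal of 514 and 494 in the shTop1 mix, 534 and 389 in the shTop1 coculture, 520 and 463 in the shp53 mix, and 591 and 473 in the shp53 coculture. All groups overlapped, and the mean difference was -0.018 ± 0.13 (SE; limma adjusted p = 0.967). Its other probe sets went different ways. One gave -0.22 ± 0.11 (SE). Another, at the 43.6th percentile, had 24.7 and 8.55 in the shTop1 mix against 55.5 and 60.7 in the shTop1 coculture, and 53.6 and 69.1 in the shp53 mix against 60.8 and 51.2 in the shp53 coculture. There the shTop1 mix alone was low, the reverse of Sp5, with a difference of 1.23 with shTop1 and -0.099 with shp53 (limma adjusted p = 0.509 and 0.959 over all probe sets). One of the shTop1 mix arrays, at 8.55, is under the filter of 22.1, where sizes are uncertain. The remaining probe set was not above the filter.

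By its brightest probe set Ctnnb1, beta-catenin itself, was the steadiest of the members. Its signal was 22750 and 21150 in the shTop1 mix, 21260 and 22450 in the shTop1 coculture, 20950 and 21940 in the shp53 mix, and 21740 and 22330 in the shp53 coculture. The highest array was 1.09 times the lowest, and only 0.883% of genes tested had a spread over the 8 arrays as small as this on the log2 scale, at a signal near the top of the arrays (99.4th percentile). The mean difference was 0.017 ± 0.069 (SE), with a confidence interval of -0.15 to 0.19, and the other 2 probe sets had -0.00028 and -0.013. The dimmest of them was less steady, at 887.5 and 1298 in the shTop1 coculture against 953.1 to 1098 on the other arrays. With shTop1 the difference of the brightest probe set was -0.0058 here but 0.22 with median centring and 0.16 on the authors' scaling alone. Its steadiness with shTop1 thus depends on the quantile normalization. The mRNA level says nothing of beta-catenin protein, whose stability carries the signal.

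Apc, the scaffold that presents beta-catenin for destruction, had a signal of 1844 and 1875 in the shTop1 mix, 1622 and 1738 in the shTop1 coculture, 1992 and 1635 in the shp53 mix, and 1770 and 1728 in the shp53 coculture. The shTop1 groups did not overlap and the shp53 groups did. The difference was -0.15 ± 0.12 with shTop1 and -0.045 ± 0.12 with shp53 (SE; limma adjusted p = 0.773 and 0.962). The dimmest of its 4 probe sets, at the 32.6th percentile, had a mean of -0.47 ± 0.18 (SE; limma adjusted p = 0.453 over all probe sets), and the other 2 had 0.034 and -0.085.

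Gsk3b, the kinase that marks beta-catenin, had a signal of 938 and 905 in the shTop1 mix, 947 and 827 in the shTop1 coculture, 1140 and 945 in the shp53 mix, and 923 and 890 in the shp53 coculture. With shp53 both cocultures lay below both mixes, and with shTop1 the arrays overlapped. The mean difference was -0.12 ± 0.092 (SE; limma adjusted p = 0.617). Of its other 5 probe sets 3 had means below 0 and 2 above, from -0.16 to 0.30, and the last, the dimmest, was 0.30 ± 0.10 (SE; limma adjusted p = 0.421 over all probe sets).

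**Figure D2:**
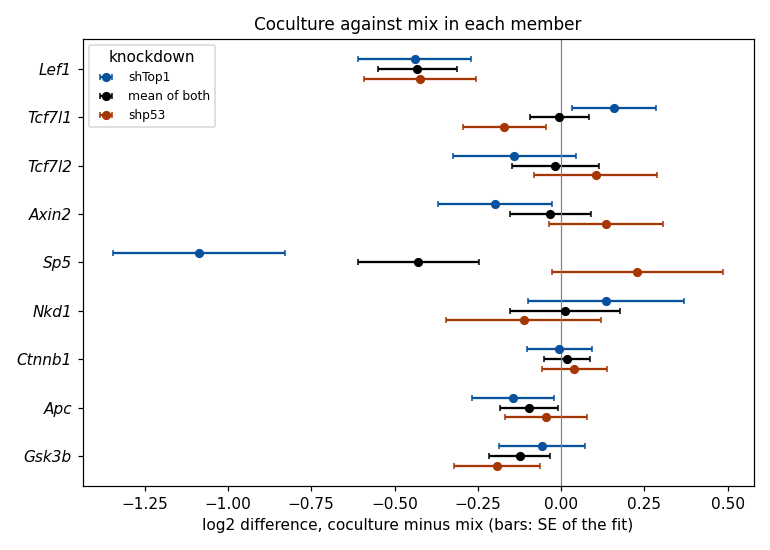
Log2 difference in signal plus 16, coculture minus mix (horizontal axis), of the 9 genes with shTop1, with shp53 and as the mean of both. Points are fitted differences and bars are standard errors. Lef1 lies at -0.44 and -0.42 in the 2 knockdowns, while Sp5 lies at -1.09 with shTop1 and 0.23 with shp53. Ctnnb1 with shTop1 lies at -0.0058 and would lie above 0 under both other scalings.

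With shTop1, 7 of the 9 members were below 0, with a median of -0.14 against 0.030 for all genes, of which 44.4% were below 0. When each gene's probe sets were averaged, 5 of 9 were above 0 with shTop1, with a median of 0.0069, since Axin2, Ctnnb1 and Tcf7l2 changed sign. Limma called 0 members and 0% of all genes, and at an unadjusted p of 0.05 it had 2 members, Sp5 and Lef1, both lower, against 3.08% of genes in that direction and 8.20% in either. In 4 members, Lef1, Axin2, Sp5 and Apc, both cocultures lay below both mixes, a pattern seen in 16.9% of genes, and in none did they lie above (24.5% of genes). With shp53, 5 of 9 were below 0, with a median of -0.045 against 0.014 and 47.0% of all genes below 0, while 5 of 9 were above 0 both with averaged probe sets and with median centring. Limma again called 0 members and 0% of genes, with 1 member, Lef1, at an unadjusted p of 0.05, against 2.99% in that direction and 6.86% in either. Lef1, Tcf7l1 and Gsk3b had both cocultures below both mixes (17.1% of genes) and Sp5 had both above (20.9% of genes). Lef1 was thus the one member that separated in both knockdowns on the same side. With median centring the mean comparison gave 0.050 for Tcf7l1 and 0.027 for Tcf7l2, and on the authors' scaling alone it gave -0.032 for Nkd1. It gave 0.11 for Axin2 with averaged probe sets and -0.010 for Ctnnb1 without shTop1 mix replicate 2. The side on which these genes lay is not settled.

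Between the knockdowns, averaged over mix and coculture, no member separated the 4 shTop1 arrays from the 4 shp53 arrays, a pattern seen in 2.09% of genes. The log2 differences, shTop1 minus shp53, ran from -0.21 for Axin2 to 0.31 for Sp5, with 6 of 9 below 0, against 51.3% of all genes, and a median of -0.085. Limma called 0 members and 0% of genes, and 0 members had an unadjusted p of 0.05 or less, against 4.70% of genes. In Sp5 the value combines a shTop1 mix above and a shTop1 coculture near the shp53 arrays.

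Counting every probe set, 27 were tested and 17 had a mean coculture difference below 0, against 48.3% of all 26118 probe sets tested. At an unadjusted p of 0.05 there were 4, of which 2 were lower (the brightest of Lef1 and the dimmest of Apc) and 2 higher (1 each of Tcf7l2 and Gsk3b). That is 4 of 27 against 10.8% of all probe sets, and limma called 0 of the 27. The Pearson correlation over the 8 arrays between a gene's brightest probe set and each of its others ran from -0.43 (Gsk3b) to 0.53 (Gsk3b).

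**Figure D3:**
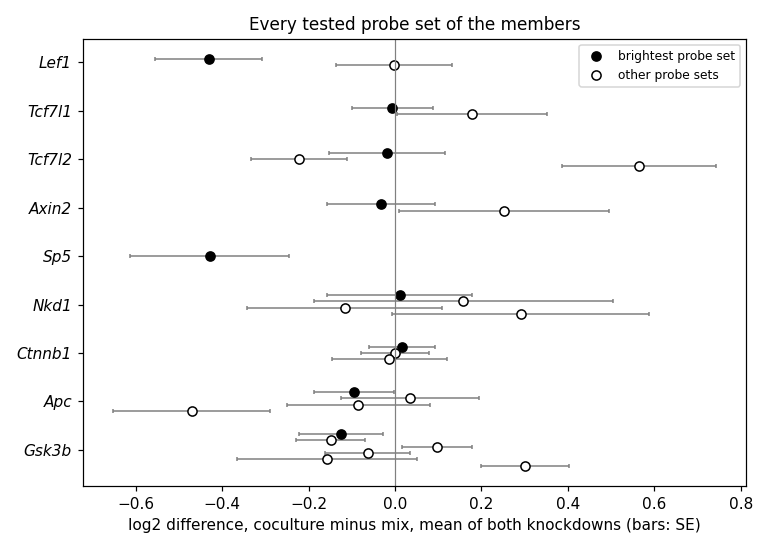
Mean log2 difference, coculture minus mix, of the 27 tested probe sets of the 9 genes (horizontal axis), with the brightest probe set of each gene filled. Points are fitted differences and bars are standard errors. The filled Lef1 point lies at -0.43 and its open partner at -0.0020, and the 3 Ctnnb1 points lie from -0.013 to 0.017.

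The genes whose log2 values ran most like those of a member over the 8 arrays were taken from the tested genes at or above the median signal of all probe sets. For Lef1 they were Tex10 (Pearson's r 0.981), Jtb (0.977) and Ddx3x (0.967), and 138 of 11309 genes had r above 0.9. For Axin2 they were Efna5 (0.943), Xbp1 (0.926) and Fam193b (0.925), with 7 genes above 0.9, and for Sp5 they were Notch4 (0.913), Hook1 (0.911) and Cd109 (0.898), with 2 above 0.9. Among the members, Lef1 and Gsk3b had the highest correlation (0.707) and Tcf7l1 and Sp5 the lowest (-0.64). All these points share 8 arrays and their normalization, and the values are descriptions.

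The rest of the pathway was described by 8 lists of 133 genes, in which limma called 0 genes in any of the 5 comparisons. The background for a call was 0% of genes in each of these comparisons. For the sign counts of the lists, all in the mean coculture comparison, the background was 44.7% of genes below 0. In the mean coculture comparison the 13 tested genes for ligands and their secretion had a median of 0.20 against 0.022 for all genes. Of these 8 were above 0, and at an unadjusted p of 0.05 there were 3 higher, against 7.09% of all genes, and 1 lower, against 4.63%. By the same rule 0 of 21 receptor and R-spondin genes were higher and 2 lower. Of 16 destruction complex genes 1 was higher and 0 lower. The 14 antagonists and the 15 nuclear cofactors each had 1 higher and 1 lower, and the 13 other targets had 0 higher and 3 lower. The genes repressed by Tcf7l1 and the junction partners had 0 in either direction. Wnt5a, a ligand best known for beta-catenin-independent signalling, had the smallest p of all the listed genes, with a difference of -0.46 ± 0.081 (SE; limma adjusted p = 0.333). Its signal was 56.0 and 46.1 in the shTop1 mix, 41.1 and 36.9 in the shTop1 coculture, 42.2 and 38.7 in the shp53 mix, and 20.0 and 20.6 in the shp53 coculture. The cocultures lay below the mixes within each knockdown (16.9% of genes with shTop1 and 17.1% with shp53). Wnt5a was named for its small p in the mean coculture comparison, so this separation is not a separate result. The shp53 coculture pair is under the filter of 22.1, where sizes are uncertain. Wnt11 had 0.43 ± 0.13 (SE; limma adjusted p = 0.357).

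Of the 21 tested receptors and R-spondin genes 13 were below 0, with a median of -0.054. The Wnt5a receptor Ror1 had -0.43 ± 0.12 and the Frizzled receptor Fzd5 -0.19 ± 0.069 (SE; limma adjusted p = 0.351 and 0.382). Fzd5 had a signal of 1584 and 1633 (shTop1 mix), 1453 and 1391 (shTop1 coculture), 1669 and 1671 (shp53 mix), and 1373 and 1510 (shp53 coculture). All its cocultures lay below all mixes, as in 3.35% of genes, and Fzd5 was named for its small p in this same comparison. With the mean of all its probe sets Ror1 was at -0.11. Its brightest probe set overlapped with shTop1 and was 64.6 and 74.3 in the shp53 mix against 39.7 and 31.5 in its coculture. In the destruction complex list 12 of 16 were above 0, with a median of 0.041. The smallest p-values were those of the tankyrase gene Tnks2 (0.20 ± 0.080) and Frat2, which encodes a Gsk3-binding protein (0.30 ± 0.12; SE), and with the mean of all its probe sets Tnks2 was at 0.011.

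Of the 14 tested antagonists 8 were above 0 (median 0.052). The secreted antagonist Frzb had 0.40 ± 0.12 and Nkd2, the paralogue of Nkd1, -0.40 ± 0.13 (SE; limma adjusted p = 0.357 and 0.367). With the mean of all their probe sets these values were 0.25 for Frzb and -0.016 for Nkd2, so the Nkd2 difference rests on its brightest probe set. The signal of that Nkd2 probe set with shTop1 was 85.9 and 103 in the mix against 49.95 and 51.3 in the coculture, and with shp53 it was 111 and 73.7 against 87.0 and 83.0. Its 2 effects differed by -0.64 ± 0.26 (SE; limma adjusted p = 1). Of 15 nuclear cofactors 11 were below 0 (median -0.048), with Tle2, a Groucho corepressor, at 0.44 ± 0.17 and the Paf1 complex subunit Cdc73 at -0.26 ± 0.10 (SE), the latter at -0.059 with the mean of all its probe sets.

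Other targets of the pathway gave 9 of 13 below 0, with a median of -0.044. Ccnd1, which encodes cyclin D1, had a signal of 2718 and 2646 (shTop1 mix), 2309 and 2135 (shTop1 coculture), 2777 and 2757 (shp53 mix), and 2121 and 2294 (shp53 coculture). All cocultures lay below all mixes, as in 3.35% of genes, with a gap wider than any spread between replicates. The difference was -0.30 ± 0.070 (SE; limma adjusted p = 0.333). Ccnd1 was named for its small p in this same comparison, so the separation is not a separate result. Mmp7, a secreted protease, had 0.50 ± 0.29 with shTop1 and -1.93 ± 0.29 with shp53 (SE; limma adjusted p = 0.692 and 0.339). Its arrays were 20.0 and 52.1 against 49.6 and 58.3 with shTop1, and 94.8 and 91.4 against 14.9 and 10.4 with shp53, the last pair under the filter. The genes that Tcf7l1 represses in these cells had 7 of 12 above 0 (median 0.029), with Nanog at 0.20 ± 0.11 and Klf4 at -0.15 ± 0.079 (SE; -0.077 with the mean of all its probe sets). Of 7 tested junction partners of beta-catenin all 7 were below 0, against 44.7% of all genes, with a median of -0.069. Among them were Pkp4, a plakophilin, at -0.19 ± 0.080 and the N-cadherin gene Cdh2 at -0.45 ± 0.22 (SE). Jup (-0.0043 ± 0.098), Vcl (-0.021 ± 0.12) and Ctnna1 (-0.029 ± 0.088) lay within their SE of 0, and the count was not rerun under other scalings.

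**Figure D4:**
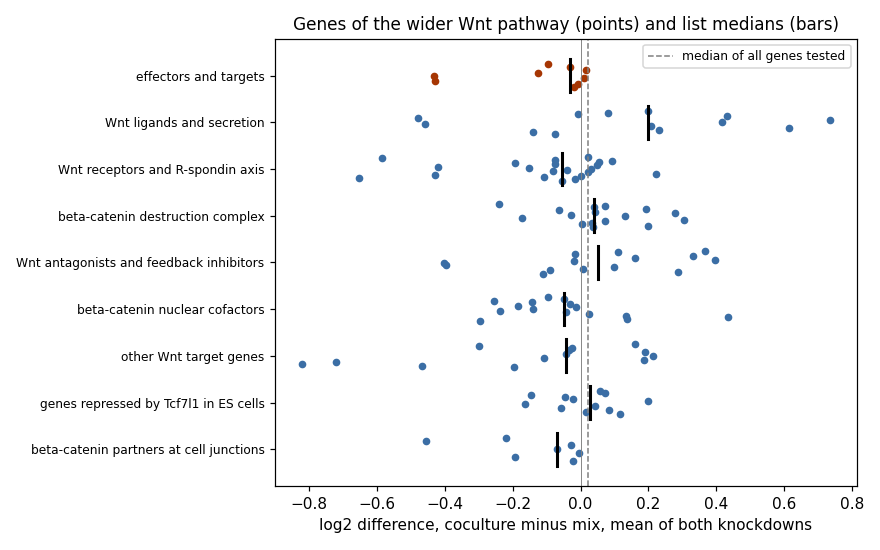
Log2 difference, coculture minus mix, as the mean of both knockdowns (horizontal axis) for every tested gene of the 9 effectors and targets and of the 8 wider pathway lists. Points are genes, bars are list medians and the dashed line is the median of all genes, at 0.022. Medians run from -0.069 for the junction partners to 0.20 for the ligands, and single genes of each list but the junction partners lie on both sides of 0.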

How the data were processed

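The authors deposited a linear intensity for each probe set on each array. The software behind it was not given in the sources used here. The authors had scaled them to a common mean without the top and bottom 2% of values (500.003 to 500.004 per array), as read from the values. The platform annotation lists a single symbol for 34958 of 45101 probe sets, several for 932 and has no entry for 9211. Older symbols were replaced by way of gene identifiers. After quantile normalization the intensities were analysed as log2(value + 16), which understates fold changes of low genes. The brightest probe set stood for each gene and was dropped if its mean lay under the 30th percentile over the whole array, a signal of 22.1. This kept 14267 genes. Limma 3.58.1 in R 4.3.3 fitted the 4 groups together (lmFit, eBayes), with 4 residual degrees of freedom. P-values are two-sided and Benjamini-Hochberg adjusted over all genes, or over all 26118 probe sets passing the filter where every probe set was tested. Confidence intervals are at 95%. The fit of the mean coculture comparison was run on simulated data, with normal noise drawn independently for each gene and array. The normalization, the filter and the choice of probe sets were not part of that run.

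The members and gene lists were chosen with earlier results of these data known. Genes outside the members were named by rule: of each pathway list the 2 with the smallest p in the mean coculture comparison, and for Lef1, Axin2 and Sp5 the 3 most correlated genes. Same-numbered replicates did not deviate together (correlations from -0.0067 to 0.051 over 14267 genes), so the numbers are not taken as pairs. The number of arrays limits the precision. Within each group the 2 arrays shared 0 identical values.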

Additional observations from a re-analysis of the deposited data

Results flagged for a closer look

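Sp5 had coculture effects of opposite sign in the 2 knockdowns, both shTop1 cocultures lying below their mixes and both shp53 cocultures above theirs. With 2 arrays a group each separation is common, at 16.9% of genes lower with shTop1 and 20.9% higher with shp53. The share of genes with both was not counted. The difference of the effects, shTop1 minus shp53, was -1.31 ± 0.36 (SE; limma adjusted p = 1). No cause was tested. The shTop1 mix is the group that stands apart from the other 3, and signals are low throughout. The difference of the effects was -0.96 without shTop1 coculture replicate 1 and -0.73 with a pseudocount of 64.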

How the results depend on the processing

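No member was called in any comparison under any of the 19 other settings. Lef1 kept its direction in each setting run, with limma adjusted p from 0.0995 to 0.634 in the mean comparison, where its difference ran from -0.52 to -0.35 leaving out 1 array. With shTop1 it was -0.27 without shTop1 coculture replicate 2, and with shp53 -0.27 without shp53 mix replicate 1. Sp5 could not be tested with the filter at the 50th percentile, which it does not reach, and fitting each knockdown by itself adds nothing to the comparisons that use all 4 groups. The replicate block changed no call (0 genes, against 0 without it, in each of the 5 comparisons), with Lef1 at -0.43 (limma adjusted p = 0.376).

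Trended and robust variances called 31 genes in the mean comparison, 3 with shTop1 and 1 with shp53, against 0 each, and no member was among them. In every other setting the count was 0. No scaling moved the median of all genes by 0.1 or more.

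Uncalled values near 0 changed sign, and the cause was not tested. In the mean comparison median centring gave Tcf7l1 0.050 and Tcf7l2 0.027, and the authors' scaling alone gave Nkd1 -0.032. With the mean of all probe sets Axin2 was at 0.11, Tcf7l1 at 0.086 and Tcf7l2 at 0.047. With shTop1, Ctnnb1 was at 0.22 (median centring), 0.16 (authors' scaling) and 0.044 (mean of all probe sets), where Axin2 was at 0.050 and Tcf7l2 at 0.20. With shp53, Apc was at 0.021 (median centring) and Ctnnb1 at -0.0022 (authors' scaling), and the mean of all probe sets gave Ctnnb1 -0.041, Gsk3b 0.088, Nkd1 0.16, Tcf7l1 0.021 and Tcf7l2 -0.11.

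Leaving out 1 array, the mean comparison ran from -0.059 to 0.047 for Tcf7l1, -0.13 to 0.092 for Tcf7l2, -0.14 to 0.078 for Axin2, -0.14 to 0.16 for Nkd1 and -0.010 to 0.045 for Ctnnb1. With shTop1 it ran from -0.059 to 0.049 for Ctnnb1, -0.36 to 0.079 for Tcf7l2, -0.17 to 0.44 for Nkd1 and -0.15 to 0.039 for Gsk3b. With shp53 it ran from -0.085 to 0.36 for Axin2, -0.052 to 0.26 for Tcf7l2, -0.26 to 0.037 for Nkd1 and -0.19 to 0.096 for Apc.

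The median of the members moved beyond its spread between replicates (0.040) as follows. With shTop1 it was -0.099 with median centring, -0.099 with the stricter filter and 0.0069 with the mean of all probe sets. With shp53 it was 0.021 with median centring and 0.021 with the mean of all probe sets. For shTop1 against shp53 it was -0.032 and -0.036 under the same 2 settings, and for the difference of the effects -0.10 with the mean of all probe sets. Leaving out 1 array it ran from -0.14 to -0.025 in the mean comparison, -0.085 to 0.019 with shp53, -0.17 to 0.040 for the difference and -0.13 to -0.033 between the knockdowns. Of the 16 genes named from the lists, none changed sign in the mean comparison, the one in which they were rerun, but with the mean of all probe sets Nkd2 was at -0.016, Tnks2 at 0.011, Cdc73 at -0.059, Ror1 at -0.11, Klf4 at -0.077 and Frzb at 0.25, and Wnt5a did not pass the filter.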

Other observations

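Cd44, a cell surface target of the pathway, was singled out after its values were seen. Its signal was 54.5 and 57.9 in the shTop1 mix, 79.7 and 89.3 in the shTop1 coculture, 61.7 and 73.9 in the shp53 mix, and 45.6 and 38.5 in the shp53 coculture. Its difference was 0.48 with shTop1 and -0.53 with shp53, and the 2 effects differed by 1.00 ± 0.18 (SE; limma adjusted p = 0.750). The cocultures lay above the mixes with shTop1 (24.5% of genes) and below them with shp53 (17.1% of genes), at the 49.2th percentile of signal. Mmp7 had the same signs, with a difference of the effects of 2.43 ± 0.41 (SE; limma adjusted p = 0.642). The shp53 cocultures of Mmp7, at 14.9 and 10.4, were under the filter.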
